A study of Mus musculus with 18 samples.

Results

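The nuclear-encoded genes of the respiratory chain were followed in mouse liver after ischemia-reperfusion. They were taken as all protein-coding genes whose GENCODE vM21 symbol begins with Nduf, Uqcr, Cox4, Cox5, Cox6, Cox7, Cox8 or Atp5. The annotation holds 90 such genes, and 89 of them were among the 47729 genes of the deposited table. A value of at least 10 in at least 3 of the 18 libraries was required for testing. It was met by 84 of the 89 genes and by 13590 genes in all. The rule takes in 36 subunits of complex I (7 catalytic core and 29 accessory) and 8 complex I assembly factors. It also takes in 8 genes of complex III, 20 of complex IV and 17 of ATP synthase. Complex II, cytochrome c, Cyc1 (cytochrome c1 of complex III) and the subunits encoded in mitochondrial DNA fall outside it.

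Complexes I, III and IV pass electrons from NADH to oxygen and pump protons across the inner mitochondrial membrane, and ATP synthase uses the returning protons to make ATP. Nearly all of their subunits are encoded in the nucleus and are assembled with a small catalytic set encoded in mitochondrial DNA. Hepatocytes are rich in mitochondria and depend on this chain for gluconeogenesis, ureagenesis and biosynthesis. Reperfusion of ischemic liver is known to damage it.

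The labels describe 18 liver samples. Ischemia-reperfusion injury (IR), in which the blood supply of the liver is stopped and then restored, was applied to 3 Il22-/-, 3 Il22bp-/- and 3 wild-type samples. Sham surgery was applied to 3 samples of each of the same 3 genotypes. Il22 encodes a cytokine that acts on hepatocytes and epithelia, and Il22bp its soluble binding protein. Neither age, strain, sex nor the times of ischemia and reperfusion are in the labels, which also do not say whether the samples of a group came from separate animals, so the p-values measure only the spread between these samples. The table heads 9 libraries IR and 9 W, each with a number, and gives no genotype. The W libraries were read as sham, because 9 sham samples remain once the IR libraries are set aside and only 6 samples are wild type. All comparisons therefore set 9 IR libraries of mixed genotype against 9 sham libraries of mixed genotype, and effects of genotype were not analysed here.

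Reads recovered from the normalized counts numbered 10176617 to 12558179 in IR libraries and 10716890 to 12202421 in 8 of the sham libraries. The recovery was not accepted for W1, where it gave 12763837. Alb, which encodes serum albumin, was the most abundant gene in all 18 libraries, as is known for liver. It took 2.86% to 7.48% of the normalized total in IR libraries and 12.9% to 15.9% in sham libraries. Library W8 stood apart among the sham libraries for the respiratory chain genes. In W8, 80 of the 84 tested genes lay above their sham mean, by a median of 0.38 on the log2 scale. The other sham medians lay between -0.21 and 0.14. Without W8, the same 74 genes passed the test described next. The tissue was sequenced whole, so fewer cells of a type and less RNA per cell cannot be told apart in any result that follows.

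Expression of the respiratory chain was lower in IR libraries across all 4 complexes. Of the 84 tested genes, 74 were lower in IR libraries, 0 were higher and 10 were not called (limma on log2(value + 1), Benjamini-Hochberg adjusted p below 0.05 over all 13590 genes). None was higher at an unadjusted p below 0.05, with 0 genes, nor with edgeR or DESeq2 on recovered reads, with 0 in each. Over all tested genes, 37.2% were called lower and 38.2% higher (75.4% in either direction), so that calls in general were common and evenly split in direction. The median log2 fold change of the 84 genes was -1.08, a level of 0.472 times sham, and the median of all tested genes was 0.02. With the libraries scaled to equal totals instead, the median of all tested genes shifted to 0.26, 3931 of them were lower and 6325 higher, and 70 of the 84 genes were lower, without Atp5g1, Ndufa10, Ndufaf7 and Ndufv1. Relative to the median of all tested genes, that of the 84 genes was -1.10 with this scaling and -1.11 with the deposited one. A fall of at least 2-fold was called for 46 of the 84, against 17.5% of all tested genes, with the deposited scaling. For 64 of the 84, all 9 IR libraries lay below all 9 sham libraries, against 19.5% of all tested genes. The reverse order, all IR libraries above all sham libraries, was found for 0 of the 84 and for 19.0% of all tested genes. Log2 fold changes ran from -2.25 for Cox6c to 0.14 for Ndufa4l2. The genes together made up 0.928% to 1.09% of the normalized total in IR libraries and 1.51% to 2.21% in sham libraries. Both extremes of the range held genes from the same complex, so that members of one complex did not share one fold change.

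**Figure D1:**
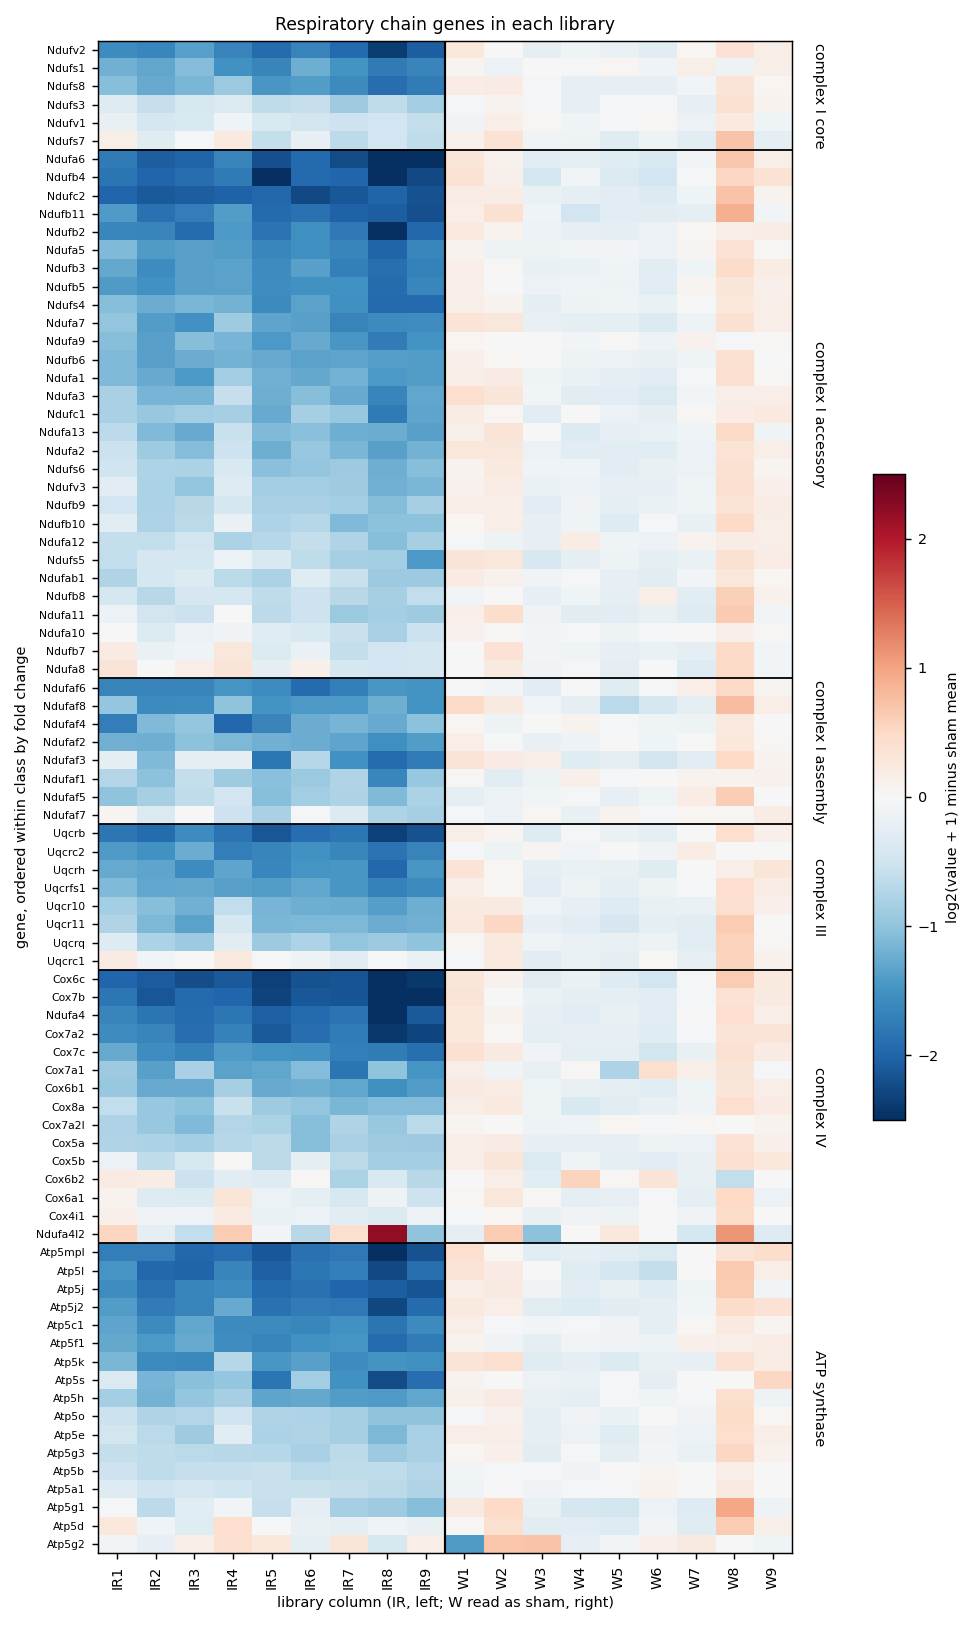
Each cell is 1 gene in 1 library, for 83 of the 84 tested genes, with IR libraries left and sham libraries right. Colour gives log2(value + 1) minus the mean of the 9 sham libraries, and values beyond the scale take its end colour. Blue fills most of the IR side, in which 73 to 83 of the 84 genes per library lay below the sham mean, and library W8 is the reddest sham column.

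Promoter sequence is shown for the genes with the lowest and the highest fold change of complexes I, III and IV, so that the range within each complex can be read beside its sequence. Both were taken among genes with exactly 1 promoter window in RefSeq, so that other genes named here may lie further out. Each window holds the 250 bases before the start site, 5' to 3' on the gene's strand, from RefSeq on GRCm38.p6. Capitals mark one of 3 short motifs of factors that are known to bind promoters of this gene class, searched on both strands. The motifs are CGCATGCG for NRF1, CCGGAAGT for the ETS family to which GABPA belongs, and AAGATGGC for YY1, and none overlaps another. The windows lie at chr15:82354292-82354541 on the minus strand (Ndufa6) and chr2:36049339-36049588 on the minus strand (Ndufa8). Those of complex III lie at chr4:116075071-116075320 on the minus strand (Uqcrh) and chr9:108936398-108936647 on the plus strand (Uqcrc1). Those of complex IV lie at chrX:106015450-106015699 on the plus strand (Cox7b) and chr5:115348959-115349208 on the minus strand (Cox6a1).
Ndufa6: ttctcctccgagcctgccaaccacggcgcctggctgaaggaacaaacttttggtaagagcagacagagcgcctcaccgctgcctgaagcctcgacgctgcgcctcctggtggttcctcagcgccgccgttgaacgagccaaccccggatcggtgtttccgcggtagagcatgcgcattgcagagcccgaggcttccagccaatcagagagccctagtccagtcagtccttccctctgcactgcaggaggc
Ndufa8: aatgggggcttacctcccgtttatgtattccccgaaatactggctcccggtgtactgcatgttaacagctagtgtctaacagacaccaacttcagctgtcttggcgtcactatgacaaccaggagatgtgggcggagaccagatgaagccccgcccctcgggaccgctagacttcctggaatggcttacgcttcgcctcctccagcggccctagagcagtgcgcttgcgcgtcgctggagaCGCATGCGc
Uqcrh: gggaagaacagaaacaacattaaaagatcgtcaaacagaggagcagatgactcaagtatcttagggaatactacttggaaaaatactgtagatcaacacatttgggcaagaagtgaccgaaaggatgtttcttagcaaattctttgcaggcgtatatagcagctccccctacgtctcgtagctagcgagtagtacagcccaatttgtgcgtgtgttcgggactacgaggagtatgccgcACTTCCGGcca
Uqcrc1: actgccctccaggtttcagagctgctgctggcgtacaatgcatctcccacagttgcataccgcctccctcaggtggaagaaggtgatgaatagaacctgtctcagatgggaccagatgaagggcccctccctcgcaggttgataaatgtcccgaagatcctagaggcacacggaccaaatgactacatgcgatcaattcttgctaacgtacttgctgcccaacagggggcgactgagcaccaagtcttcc
Cox7b: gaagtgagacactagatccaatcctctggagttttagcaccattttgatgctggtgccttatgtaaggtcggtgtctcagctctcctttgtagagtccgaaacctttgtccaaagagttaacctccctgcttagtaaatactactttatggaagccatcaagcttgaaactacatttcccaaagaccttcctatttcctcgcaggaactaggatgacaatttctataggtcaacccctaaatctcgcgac
Cox6a1: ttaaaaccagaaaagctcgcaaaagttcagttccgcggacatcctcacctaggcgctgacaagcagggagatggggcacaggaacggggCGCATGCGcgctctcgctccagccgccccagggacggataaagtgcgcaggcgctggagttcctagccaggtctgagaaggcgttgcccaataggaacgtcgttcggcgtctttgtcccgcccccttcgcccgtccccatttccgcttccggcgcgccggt
The NRF1 motif stands in the windows of Ndufa8 and Cox6a1, and the ETS motif, on the opposite strand, in that of Uqcrh. The other 3 windows hold none of the motifs in these exact letters. ATP synthase windows were chosen in the same way but are not shown. There the NRF1 motif stands in the windows of both Atp5l (lowest, log2 fold change -1.86) and Atp5g2 (highest, 0.04). RefSeq windows were found for 69 of the 84 tested genes, 74 windows in all. The NRF1 motif was present in 8 of the 74 (10.8%), against 1.55% of all 32851 RefSeq windows of the same length. The ETS motif was present in 3 (4.05%), against 2.88% of all windows, and the YY1 motif in 1 (1.35%), against 1.57%. By outcome, the NRF1 motif was present in 5 of 65 windows of genes lower in IR libraries and in 3 of 9 windows of genes not called. Median GC content was 56.4% in the 74 windows and 52.4% in all RefSeq windows, and the comparison makes no allowance for it. These matches describe letters only.

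The catalytic core of complex I holds the flavin and the iron-sulfur clusters that carry electrons from NADH to ubiquinone. Of its 7 nuclear-encoded genes, 6 were lower in IR libraries, 3 of them at least 2-fold, with a median log2 fold change of -0.58. Normalized counts are given from here on as the lowest, the median and the highest of the 9 libraries. Ndufv2, an iron-sulfur subunit of the NADH-oxidizing module (ENSMUSG00000024099, chromosome 17, 66078638 to 66101559), had 587, 948 and 1179 in IR libraries, against 2487, 3047 and 3893 in sham libraries. The groups did not overlap, and the log2 fold change was -1.80 ± 0.12 (SE, limma adjusted p = 5.28e-11). Ndufs1, the largest iron-sulfur subunit of that module, had 503, 610.0 and 807 in IR libraries, against 1544, 1735 and 1896 in sham libraries. Its log2 fold change of -1.43 ± 0.09 (SE, limma adjusted p = 2.17e-11) again came without overlap. Ndufv1, which binds the flavin and the NADH, had 1444, 1642 and 2038 in IR libraries, against 1988, 2139 and 2591 in sham libraries. Its groups overlapped through library IR4 alone, which lay above the sham libraries W4, W7 and W9. The log2 fold change of Ndufv1 was -0.39 ± 0.08 (SE, limma adjusted p = 1.26e-04).

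In the ubiquinone-reducing module of the core, Ndufs8, a carrier of iron-sulfur clusters, fell at least 2-fold. It had 485, 694 and 959 in IR libraries, against 1576, 1780.2 and 2270.2 in sham libraries, a log2 fold change of -1.39 ± 0.12 (SE, limma adjusted p = 2.45e-09). Ndufs3 had a log2 fold change of -0.58 ± 0.09 (SE, limma adjusted p = 9.22e-06). Near-identical sequence of other annotated genes covers 84.1% of its transcript, so that its reads could be split between genes. Among these genes is Kbtbd4, which overlaps its exons on the opposite strand. Ndufs7, which carries the cluster next to ubiquinone, had 751, 959 and 1415 in IR libraries, against 964, 1089 and 1940.0 in sham libraries. Its groups overlapped, and its log2 fold change of -0.28 ± 0.15 (SE, limma adjusted p = 0.0946) did not pass the test (95% interval -0.59 to 0.03). It passed without library IR1 (-0.33, limma adjusted p = 0.0495) or without IR4 (-0.35, limma adjusted p = 0.0361).

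The accessory subunits of complex I surround the core and are needed for its assembly and stability. Of 29, all tested, 27 were lower in IR libraries, 16 of them at least 2-fold, with a median log2 fold change of -1.06. Ndufa6, a subunit of the LYR family (ENSMUSG00000022450, chromosome 15, 82350140 to 82354322), had 843, 1187 and 1547 in IR libraries, against 3782, 4728 and 7909 in sham libraries. Every sham library exceeded every IR library, and the log2 fold change was -2.10 ± 0.14 (SE, limma adjusted p = 7.63e-11). Ndufb4, a membrane-arm subunit, had 58.8, 95.5 and 111 in IR libraries, against 271, 374 and 542 in sham libraries, a log2 fold change of -2.09 ± 0.15 (SE, limma adjusted p = 1.74e-10). For this gene, 40.2% of the transcript is shared with near-identical sequence elsewhere. Ndufc2, also of the membrane arm, fell, with a log2 fold change of -2.08 ± 0.11 (SE, limma adjusted p = 2.58e-12) and was tightly held in IR libraries at 470.3, 543 and 575. Ndufb11, an X-linked membrane-arm subunit, had 845, 1060.0 and 1472 in IR libraries, against 2784, 3620.4 and 7161 in sham libraries. Library W8 gave the highest sham value, and the log2 fold change was -1.84 ± 0.16 (SE, limma adjusted p = 1.69e-09). Near-identical sequence of other annotated genes covers 62.9% of the Ndufb11 transcript. Rbm10, among these genes, overlaps its exons on the opposite strand.

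Among the other accessory subunits (log2 fold changes ± SE), smaller falls were found for Ndufs4, whose loss causes Leigh-like disease in mice, at -1.45 ± 0.12, and Ndufa9, which stabilizes the junction of the arms, at -1.34 ± 0.08. Ndufa1 and Ndufa13, both membrane subunits near that junction, gave -1.24 ± 0.10 and -1.06 ± 0.12. Ndufab1, the mitochondrial acyl carrier protein, was lower by less (-0.63 ± 0.10), as was Ndufa10 (-0.35 ± 0.09). Ndufa2 had 940.3, 1142 and 1687 in IR libraries, against 2016, 2204 and 3064 in sham libraries, a log2 fold change of -0.99 ± 0.13 (SE, limma adjusted p = 5.21e-07). The 2 accessory genes that were not called are Ndufa8 and Ndufb7. Ndufa8 had 1200.2, 1699 and 2108 in IR libraries, against 1341, 1632 and 2358 in sham libraries. Its groups overlapped over most of their range, with a log2 fold change of -0.07 ± 0.13 (SE, limma adjusted p = 0.627) and a 95% interval of -0.34 to 0.20. Ndufb7 had 735, 995 and 1362 in IR libraries, against 949.5, 1061 and 1564 in sham libraries, also with overlap, and a log2 fold change of -0.20 ± 0.12 (SE, limma adjusted p = 0.148).

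All 8 Ndufaf assembly factors, which build complex I without remaining in it, were lower in IR libraries, with a median log2 fold change of -1.16. Ndufaf6 had 69.8, 85.2 and 97.5 in IR libraries, against 219, 262 and 376 in sham libraries. These groups were well separated, with a log2 fold change of -1.62 ± 0.10 (SE, limma adjusted p = 1.16e-11). Ndufaf8, which in human cells acts with the product of Ndufaf5, had 169, 188 and 260.4 in IR libraries, against 319.8, 487 and 876 in sham libraries. Its log2 fold change was -1.36 ± 0.16 (SE, limma adjusted p = 1.69e-07). Ndufaf1, a factor for the membrane arm, gave -0.95 ± 0.11 (SE, limma adjusted p = 9.31e-08), and Ndufaf5 gave -0.84 ± 0.12 (SE, limma adjusted p = 1.87e-06). The smallest difference was that of Ndufaf7, an arginine methyltransferase. Ndufaf7 had 113, 157 and 211 in IR libraries, against 177, 205 and 231 in sham libraries, with overlap and a log2 fold change of -0.40 ± 0.12 (SE, limma adjusted p = 0.00552).

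**Figure D2:**
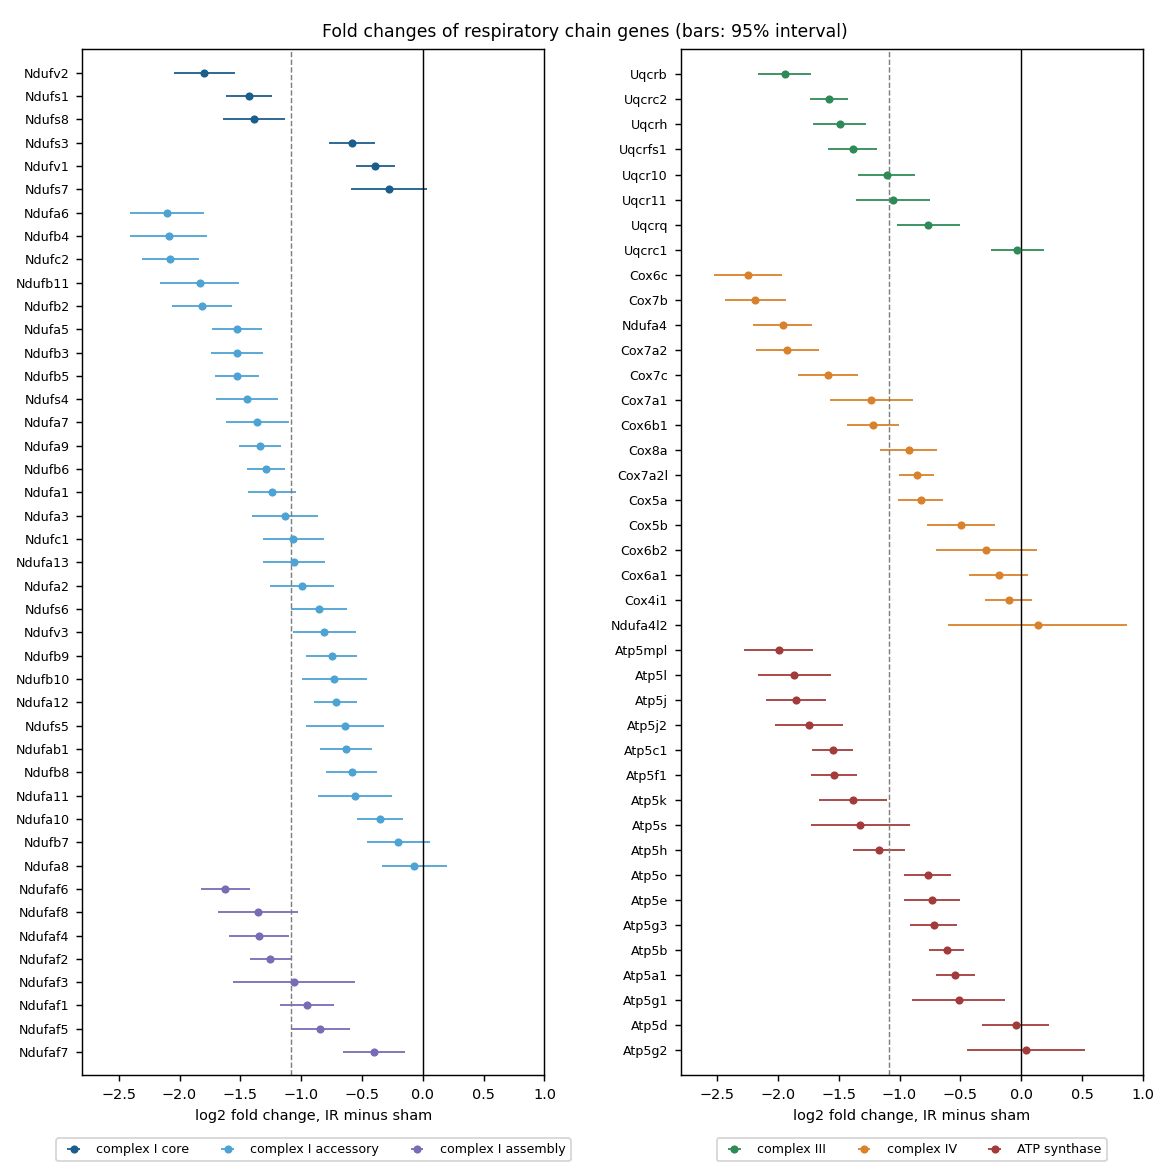
Points give the log2 fold change of IR over sham for 83 of the 84 tested genes, grouped by complex, with 95% intervals from limma. The dashed line marks the median of -1.08 over all 84. Complexes I, III and IV and ATP synthase each reach from near 0 to far left of the dashed line, and all 10 intervals that cross 0 belong to the genes that were not called.

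Complex III takes electrons from ubiquinol to cytochrome c. Of its 8 genes matched by the symbol rule, 7 were lower in IR libraries, 6 of them at least 2-fold, with a median log2 fold change of -1.24. Uqcrb, a small subunit at the ubiquinone site (ENSMUSG00000021520, chromosome 13, 66900617 to 66905378), had 244, 327 and 415 in IR libraries, against 982, 1239 and 1638 in sham libraries. The groups lay far apart, with a log2 fold change of -1.94 ± 0.11 (SE, limma adjusted p = 2.72e-12), although 68.6% of the transcript is shared with near-identical sequence and another gene overlaps its exons on the opposite strand. Uqcrc2, a core protein, had 1054, 1225 and 1608 in IR libraries, against 3469.8, 3815 and 4312 in sham libraries, and its log2 fold change was -1.58 ± 0.08 (SE, limma adjusted p = 5.81e-13). Its partner Uqcrc1 (ENSMUSG00000025651, chromosome 9, 108936633 to 108949623) had 1784, 2056 and 2517 in IR libraries, against 1756, 2086 and 3126 in sham libraries. For Uqcrc1 the IR libraries lay within the range of the sham libraries, with a log2 fold change of -0.03 ± 0.10 (SE, limma adjusted p = 0.799) and a 95% interval of -0.25 to 0.19. The 95% interval of Uqcrc2 ran from -1.74 to -1.42, so the intervals of these partner genes did not meet. Their difference was not tested as such.

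Uqcrfs1, the Rieske iron-sulfur protein, fell, with a log2 fold change of -1.39 ± 0.10 (SE, limma adjusted p = 9.73e-11). Uqcrh, the hinge protein beside cytochrome c1, had 968, 1378 and 1585 in IR libraries, against 3074, 3801 and 4808 in sham libraries. Its log2 fold change was -1.49 ± 0.10 (SE, limma adjusted p = 1.02e-10). Of the smallest subunits, Uqcr10 fell with a log2 fold change of -1.10 ± 0.11, Uqcr11 with -1.05 ± 0.15 and Uqcrq with -0.76 ± 0.12. Uqcrq had 3225, 3446 and 5309.9 in IR libraries, against 5371, 5964 and 9569 in sham libraries, so that its groups did not overlap in spite of the smaller difference.

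Complex IV, cytochrome c oxidase, reduces oxygen to water on subunits encoded in mitochondrial DNA, which the nuclear subunits surround and regulate. Of 15 tested genes, 11 were lower in IR libraries, 7 of them at least 2-fold, with a median log2 fold change of -0.92. Cox6c (ENSMUSG00000014313, chromosome 15, 35925886 to 35938246) had 1045, 1563 and 1804 in IR libraries, against 5116, 6862 and 10945 in sham libraries. Its log2 fold change of -2.25 ± 0.13 (SE, limma adjusted p = 1.06e-11) was the lowest of all 84 genes, and its groups lay well apart. Near-identical sequence covers 31.3% of its transcript, and another gene overlaps its exons on the opposite strand. Cox7b (ENSMUSG00000031231, chromosome X, 106015700 to 106022450) had 798, 1140.3 and 1442 in IR libraries, against 4184, 4902 and 6486 in sham libraries. It followed closely at -2.18 ± 0.12 (SE, limma adjusted p = 2.95e-12). Ndufa4, once counted to complex I and now placed in complex IV, had 1570.2, 2345 and 2863 in IR libraries, against 7445, 8861 and 11988 in sham libraries. Its log2 fold change was -1.96 ± 0.12 (SE, limma adjusted p = 8.49e-12), with no overlap.

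Cox4i1, which stabilizes the catalytic core early in assembly (ENSMUSG00000031818, chromosome 8, 120668222 to 120674207), had 4192, 4845 and 6214 in IR libraries, against 4748, 5194 and 7345 in sham libraries. Its groups overlapped, another gene overlaps its exons on the opposite strand, and its log2 fold change was -0.10 ± 0.09 (SE, limma adjusted p = 0.322), with a 95% interval of -0.29 to 0.09. Cox5a, its partner in early assembly, fell, with a log2 fold change of -0.83 ± 0.09 (SE, limma adjusted p = 4.26e-08), as did Cox5b, which binds zinc, with -0.50 ± 0.13 (SE, limma adjusted p = 0.00235). Cox6a1, a subunit at the dimer interface (ENSMUSG00000041697, chromosome 5, 115345642 to 115348981), had 3926, 4779 and 6879 in IR libraries, against 4816, 5394 and 7885 in sham libraries. It was not called, at -0.19 ± 0.12 (SE, limma adjusted p = 0.156), but it passed without library IR4 (-0.25, limma adjusted p = 0.0483). Cox6b1, on the outer face beside cytochrome c, had 1531, 1848 and 2505 in IR libraries, against 3709, 4133 and 5450.1 in sham libraries, a log2 fold change of -1.22 ± 0.10 (SE, limma adjusted p = 1.48e-09). Cox7a2l, which joins complexes into supercomplexes, gave -0.86 ± 0.07 (SE, limma adjusted p = 7.08e-10).

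Several complex IV genes have a second isoform that is typical of muscle, lung, testis or hypoxic cells. Of these, Cox4i2, Cox6a2, Cox7b2, Cox8b and Cox8c did not pass the filter, and Cox6b2, Cox7a1 and Ndufa4l2 did. Shares are given of the summed level per kb of merged exons within each family. Cox4i1 made up a median of 99.96% of the Cox4 level in IR libraries and 99.91% in sham libraries. Cox6a1, Cox6b1 and Cox8a likewise made up nearly all of the level of their families in both groups. Cox7b2 and Cox8c were listed at 0 in all 18 libraries. Cox6a2, the heart and muscle form, had 0, 1.91 and 6.28 in IR libraries, against 1.11, 4.14 and 5.11 in sham libraries, and Cox8b had 0, 0 and 2.60 in IR libraries, against 0, 1.02 and 2.07 in sham libraries. Cox4i2, the oxygen-sensitive form, had 0.859, 1.05 and 15.6 in IR libraries, against 0, 2.07 and 4.39 in sham libraries. It failed the filter because only 1 library, IR8, reached the minimum of 10. Just inside the filter lay Cox6b2, with 4.77, 6.94 and 10.5 in IR libraries, against 5.49, 9.01 and 13.6 in sham libraries, a log2 fold change of -0.29 ± 0.20 (SE, limma adjusted p = 0.194).

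Cox7a1, the muscle form of Cox7a, passed the filter and had 10.5, 15.6 and 22.5 in IR libraries, against 23.1, 40.9 and 52.8 in sham libraries, a log2 fold change of -1.23 ± 0.16 (SE, limma adjusted p = 9.63e-07). Its liver counterpart Cox7a2 had 826, 1173 and 1474 in IR libraries, against 3570.4, 4346 and 5553 in sham libraries, with -1.92 ± 0.12 (SE, limma adjusted p = 2.79e-11). The median share of Cox7a1 was 2.61% in IR libraries and 1.58% in sham libraries. Cox8a fell, with a log2 fold change of -0.92 ± 0.11 (SE, limma adjusted p = 2.60e-07). Ndufa4l2, a homologue of Ndufa4 that is induced by hypoxia in other tissues, had 9.45, 19.1 and 96.0 in IR libraries, against 9.32, 19.7 and 43.9 in sham libraries. Library IR8 alone gave the high value, and its log2 fold change of 0.14 ± 0.35 (SE, limma adjusted p = 0.735) was not called and was -0.12 without IR8 (limma adjusted p = 0.701). Its share of the Ndufa4 pair was 0.567%, 1.09% and 7.16% in IR libraries (lowest, median and highest), against 0.151%, 0.332% and 0.460% in sham libraries. These shares did not overlap between the groups, with Ndufa4 in the denominator lower in every IR library.

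**Figure D3:**
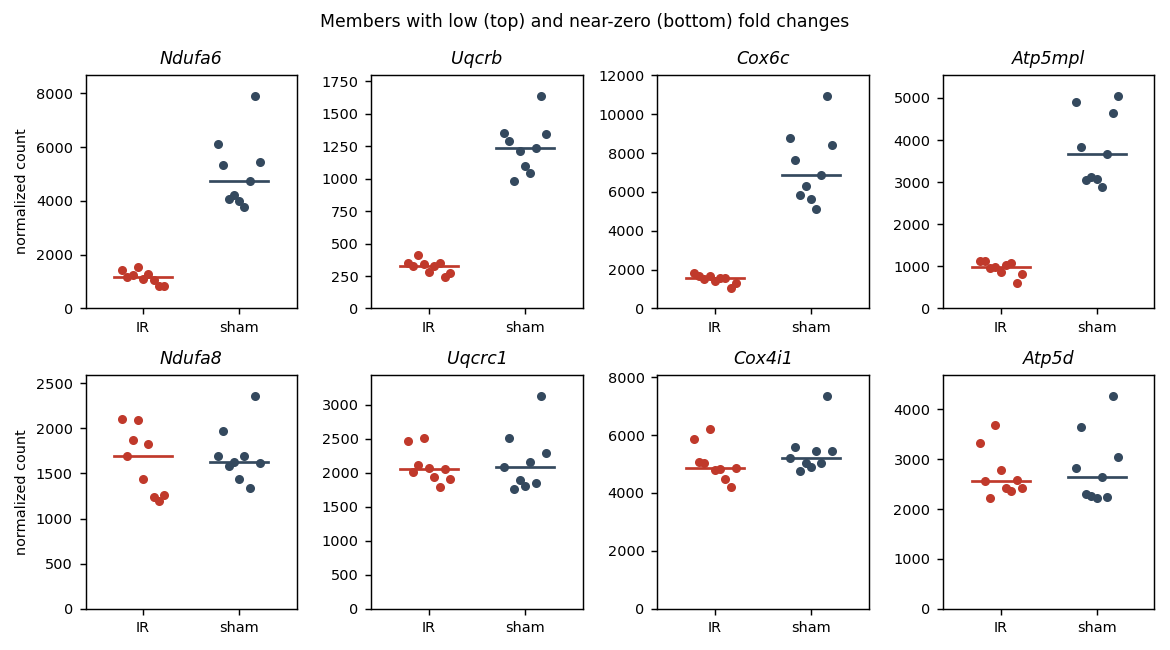
Normalized counts of 4 genes with low fold changes (top) and 4 with fold changes near 0 (bottom), with 1 point per library, IR left of sham, and a bar at the median. In the top row no IR point reaches a sham point, and in the bottom row the groups overlap.

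ATP synthase couples a catalytic head to a membrane rotor. Of its 17 genes, 15 were lower in IR libraries, 9 of them at least 2-fold, with a median log2 fold change of -1.17. The alpha and beta subunits of the catalytic head were among those that fell least. Atp5b, the catalytic beta subunit (ENSMUSG00000025393, chromosome 10, 128083273 to 128090391), had 9338, 10029 and 10922 in IR libraries, against 14647, 15361 and 17416 in sham libraries. The groups were narrow and did not overlap, with a log2 fold change of -0.61 ± 0.07 (SE, limma adjusted p = 9.87e-08). Atp5a1, the alpha subunit, had 7214, 8354 and 9800.2 in IR libraries, against 11386, 12083 and 14256 in sham libraries, a log2 fold change of -0.54 ± 0.08 (SE, limma adjusted p = 2.32e-06). In the central stalk, Atp5c1, the gamma subunit, fell, with a log2 fold change of -1.55 ± 0.08 (SE, limma adjusted p = 1.53e-12). Atp5d, the delta subunit of the same stalk, had 2223, 2559.9 and 3696 in IR libraries, against 2216, 2638 and 4266 in sham libraries. The IR libraries lay within the range of the sham libraries, with a log2 fold change of -0.04 ± 0.13 (SE, limma adjusted p = 0.769) and a 95% interval of -0.32 to 0.23.

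Several small membrane subunits fell at least 2-fold. Atp5mpl, which associates with the membrane part (ENSMUSG00000021290, chromosome 12, 111961375 to 111966977), had 598, 988 and 1125 in IR libraries, against 2887, 3680.4 and 5052 in sham libraries. All IR libraries lay below all sham libraries, with a log2 fold change of -1.99 ± 0.14 (SE, limma adjusted p = 6.65e-11). Atp5l, the g subunit of the dimer interface, had 59.6, 77.3 and 104 in IR libraries, against 192, 291 and 458 in sham libraries, a log2 fold change of -1.86 ± 0.15 (SE, limma adjusted p = 4.50e-10), with 86.8% of its transcript shared with near-identical sequence. Atp5k, the e subunit, had 898, 981 and 1683 in IR libraries, against 2186, 2437 and 3642 in sham libraries. Its log2 fold change was -1.39 ± 0.13 (SE, limma adjusted p = 1.07e-08), and library IR4 lay well above the other IR libraries. Of the peripheral stalk, Atp5j (coupling factor 6) fell with a log2 fold change of -1.85 ± 0.12, Atp5f1 (subunit b) with -1.54 ± 0.09 and Atp5h (subunit d) with -1.17 ± 0.10. Atp5o, the oligomycin sensitivity protein, fell with a log2 fold change of -0.77 ± 0.09. Near-identical sequence of other annotated genes covers 80.3% of the Atp5h transcript and 92.0% of the Atp5o transcript. It also covers 64.6% of that of Atp5f1, 56.6% of that of Atp5k and 33.4% of that of Atp5j. Exons of Atp5f1 and Atp5j are overlapped on the opposite strand as well. For Atp5o, these genes include another Atp5o entry and D430001F17Rik, both of which overlap its exons at the same locus.

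The rotor ring is made of subunit c, which 3 genes encode as the same mature protein. Atp5g3 held most of the level per kb, with a median share of 93.5% in IR libraries and 94.5% in sham libraries. It had 3172, 3675 and 3949 in IR libraries, against 4879.7, 5725 and 8506 in sham libraries, a log2 fold change of -0.72 ± 0.09 (SE, limma adjusted p = 6.69e-07). Atp5g1 had 373, 523 and 755 in IR libraries, against 568, 706 and 1525 in sham libraries, with overlap and a log2 fold change of -0.51 ± 0.18 (SE, limma adjusted p = 0.0155). Its call was lost under equal column totals (-0.28, limma adjusted p = 0.124). Atp5g2, close to the filter's floor, had 8.93, 13.7 and 16.3 in IR libraries, against 3.96, 12.1 and 20.7 in sham libraries, a log2 fold change of 0.04 ± 0.23 (SE, limma adjusted p = 0.887), with 88.2% of its transcript shared with near-identical sequence. Over all 89 genes, 26 had at least 25% of the transcript covered in this way, and exons of 29 overlapped a gene on the opposite strand. These counts overlap, because a gene at the same locus also counted as near-identical sequence. Cox5a and Ndufb6, for example, were covered only by the gene that overlaps them on the opposite strand. The strand setting of the read counting is not given in the sources used here, so values of such genes are less certain. Not every such gene is marked where its values are given.

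Levels between genes are comparable only per length. Per kb of merged exons, Cox6a1 had the highest sham median of the 84 genes, at 6808 in IR libraries and 7684 in sham libraries. Ndufa4 followed among complex IV genes, at 1698 in IR libraries and 6416 in sham libraries, and so did Cox6b1, at 2611 in IR libraries and 5838 in sham libraries. In complex III the highest were Uqcr10, at 2363 in IR libraries and 5093 in sham libraries, and Uqcrq, at 1882 in IR libraries and 3257 in sham libraries. Ndufa1 led the complex I subunits, at 1982 in IR libraries and 4646 in sham libraries, and Atp5k led ATP synthase, at 1593 in IR libraries and 3956 in sham libraries. The assembly factors stood far lower, with Ndufaf8 highest at 225 in IR libraries and 584 in sham libraries. Merged exons include retained introns of rare transcripts. The median sham level of the 84 genes was 1134 per kb of merged exons, 1702 per kb of the longest transcript and 1791 per kb of the principal transcript. The order of genes depends on the length used: per kb of the principal transcript, the sham median was 14526 for Ndufa4 and 9446 for Cox6a1.

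**Figure D4:**
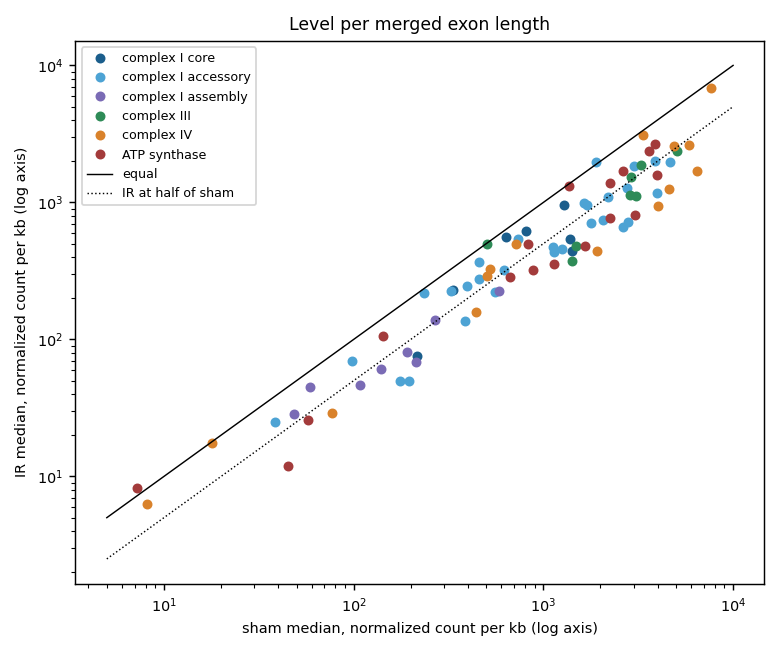
Median normalized count per kb of merged exons in IR libraries (vertical, log axis) against sham libraries (horizontal, log axis) for the 84 tested genes, coloured by complex. Most points lie near or below the dotted line of a 2-fold fall, and those on the line of equality come from several complexes at low and high levels alike.

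Among single libraries, the median difference of the 84 genes from the sham mean ran from -1.37 in IR8 to -0.76 in IR4. No IR library reached the lowest sham library, at -0.21. The median difference of all tested genes stayed between 0.01 and 0.02 in IR libraries and between -0.01 and 0.03 in sham libraries. IR1 and IR4 had 74 and 73 genes below the sham mean, and the other 7 IR libraries had 82 or 83. Each class of genes gave IR medians below all of its sham medians. Complex III ran from -1.53 to -0.96 in IR libraries and from -0.22 to 0.41 in sham libraries, and ATP synthase from -1.42 to -0.59 in IR libraries and from -0.20 to 0.39 in sham libraries. The spread between libraries of a group was alike under both kinds of surgery, with a median SD of 0.24 on the log2 scale in both. The SD was larger in IR libraries for 46 of the 84 genes, against 74.4% of all tested genes.

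The subunits encoded in mitochondrial DNA complete the same complexes. Of 13 such genes, 7 passed the filter and all 7 were lower in IR libraries, with a median log2 fold change of -0.65. mt-Co1, the catalytic subunit of complex IV, was lower with a log2 fold change of -1.04 and mt-Nd1 of complex I with -0.89 (limma adjusted p = 8.98e-07 and 8.13e-07). mt-Nd4 had the smallest of the called differences, at -0.38 (limma adjusted p = 0.0260). mt-Nd4l, mt-Co3 and mt-Atp8 were listed at 0 in all libraries, although liver is known to express them, so they give no value. The other 3 that did not pass were listed at low values. Liver is known to express these too, so their values likewise do not measure their level. mt-Co2 and mt-Atp6 reached no more than 1.13 and 1.04 in any library. For mt-Nd3 the median was 2.04 in IR libraries and 9.01 in sham libraries, which was not read as a difference. Complex II and nuclear-encoded electron carriers outside the symbol rule moved the same way, in a list that also holds Cyc1 of complex III. All 9 genes of complex II and electron carriers were lower, with a median of -0.74, led by Etfa of the electron transfer flavoprotein (-1.99) and Sdhd, a membrane anchor of complex II (-1.77).

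In the other mitochondrial gene lists, calls in both directions were found, as over all tested genes (37.2% lower and 38.2% higher). Of 29 tested assembly factors for complexes II to V, 21 were lower and 4 higher, with a median of -0.55. Of 8 further complex I assembly factors, 5 were lower and 1 higher. The mitochondrial ribosome had 49 of 77 lower and 11 higher, with a median of -0.64. Mitochondrial protein import had 15 of 23 lower and 3 higher, and coenzyme Q synthesis 7 of 13 lower and 2 higher. In the tricarboxylic acid cycle, 9 of 13 were lower and 1 higher, with Sucla2, a succinyl-CoA ligase subunit, at -1.68. Of 8 genes for ATP export and uncoupling, 6 were lower and 1 higher. Atpif1, which inhibits ATP hydrolysis by ATP synthase, was lower with a log2 fold change of -2.13 (limma adjusted p = 7.29e-12). No difference between these lists and the respiratory chain genes was tested.

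Regulators of mitochondrial biogenesis moved in both directions, with 8 of 13 lower and 4 higher, against 37.2% lower and 38.2% higher among all tested genes. Pprc1, a coactivator of the PGC-1 family, was higher with a log2 fold change of 2.34 (limma adjusted p = 2.78e-10), and Nrf1, which encodes the factor whose motif is marked above, was higher with 0.82 (limma adjusted p = 2.44e-05). Ppargc1a, the PGC-1alpha coactivator, was lower with -1.36 (limma adjusted p = 2.56e-07). Gabpa, which encodes an ETS factor, was lower with -0.80 (limma adjusted p = 3.51e-07), and Yy1 was not called at 0.27 (limma adjusted p = 0.0680). Ppara, a nuclear receptor for fatty acid oxidation, was lower with -1.68 (limma adjusted p = 3.99e-11). Tfam, which packages mitochondrial DNA, was lower with -1.10 (limma adjusted p = 1.31e-10), and Polrmt, the mitochondrial RNA polymerase, was higher with 1.44 (limma adjusted p = 8.19e-11). Among 7 hypoxia-linked genes, the median log2 fold change was 0.14, which is the value of Ndufa4l2, itself among the respiratory chain genes tested above. Pdk1 (-2.55), Bnip3 (-2.35) and Higd1a (-0.60) were lower, Lonp1 (0.51) was higher, and Hif1a, Vegfa and Ndufa4l2 were not called.

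Markers of the cell types in liver were counted too, beside 37.2% of all tested genes called lower and 38.2% called higher. Of 10 hepatocyte markers, 9 were matched by symbol, of which 8 were lower and 1, Hnf4a, was higher in IR libraries, with a median log2 fold change of -0.75. Their summed level was 654663 to 1028960 in IR libraries and 2099030 to 2565500 in sham libraries, most of it Alb. All 6 tested of 8 neutrophil markers were higher, with summed levels of 302 to 3866 in IR libraries and 52.8 to 122.9 in sham libraries. Of the 8, Mpo had a median of 0 in both groups and Ly6g a median of 0 in sham libraries. Of 8 Kupffer cell and macrophage markers, 6 were lower and 2 higher, with summed levels of 2513 to 4543 in IR libraries and 6131 to 8164 in sham libraries. All 6 tested of 7 T, B and NK cell markers were lower, at 10.5 to 39.8 in IR libraries and 101.4 to 197 in sham libraries. Endothelial markers had 3 of 6 lower and 1 higher, stellate cell and fibroblast markers 3 of 6 lower and 3 higher, and cholangiocyte markers 3 of 4 higher. Of 5 erythroid markers 1 was lower, and none of 5 muscle markers passed the filter. The part of cell composition in the fall of the respiratory chain genes was not tested.

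The fold changes also moved with the base composition of the transcripts. Across the 84 genes, the log2 fold change correlated with the GC content of the principal transcript with Spearman's rho of 0.513 (Pearson's r 0.523), and across 13558 tested genes with rho of 0.453. These are correlations over genes that share the same 18 libraries, and genes are not independent replicates. Below 45% GC, all 11 members were lower, with a median of -1.58, against -0.65 for all tested genes in that range, of which 67.3% were lower. Between 45% and 50% GC, all 23 were lower, with -1.29 against -0.13 and 42.3% lower among all tested genes. From 50% to 55% GC, 25 of 26 were lower, with -1.15 against 0.30 and 26.3% lower among all tested genes. From 55% GC upward, 15 of 24 were lower, with -0.66 against 0.60 and 14.9% lower among all tested genes. The 10 genes that were not called had 54.4% to 59.7% GC, with a median of 58.4%, and the 74 that were lower had a median of 50.1%.

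In each of these ranges the members' median lay below that of all tested genes. Transcripts of the members were short, with a median of 863 bases against 2884 for all tested genes, and their fold changes followed length weakly (rho 0.136). Short transcripts were often lower in general. Of members under 500 bases, 6 of 6 were lower, with a median of -1.17, against a median of -0.69 and 56.0% lower among all tested genes of that length. Of those from 500 to 1000 bases, 35 of 43 were lower, with a median of -1.17 against -0.56 and 56.0% lower. From 1000 to 2000 bases, 26 of 28 members were lower, with -1.06 against -0.20 and 45.4% lower. From 2000 to 4000 bases, 5 of 5 members were lower, with -0.63 against 0.14 and 33.2% lower. From 4000 bases upward, 2 of 2 were lower, with -1.16 against 0.14 and 31.6% lower. In an alternative chosen after seeing the data, fold changes were adjusted for GC content, and 80 of the 84 genes were then lower. Of the 10 genes not called, 9 were then called lower, among them Cox4i1 at -0.74, Uqcrc1 at -0.65, Atp5d at -0.72 and Ndufa8 at -0.48, while Atp5g1, Ndufab1 and Ndufaf7 lost their calls. With length adjusted as well, 72 were lower and the median was -0.65. Atp5g1, Atp5s, Cox5a, Cox5b, Ndufaf5, Ndufaf7, Ndufc1 and Ndufs5 then lost their calls, and Atp5d, Cox4i1, Cox6a1, Ndufb7, Ndufs7 and Uqcrc1 were called lower. What links GC content to the fold changes was not tested.

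**Figure D5:**
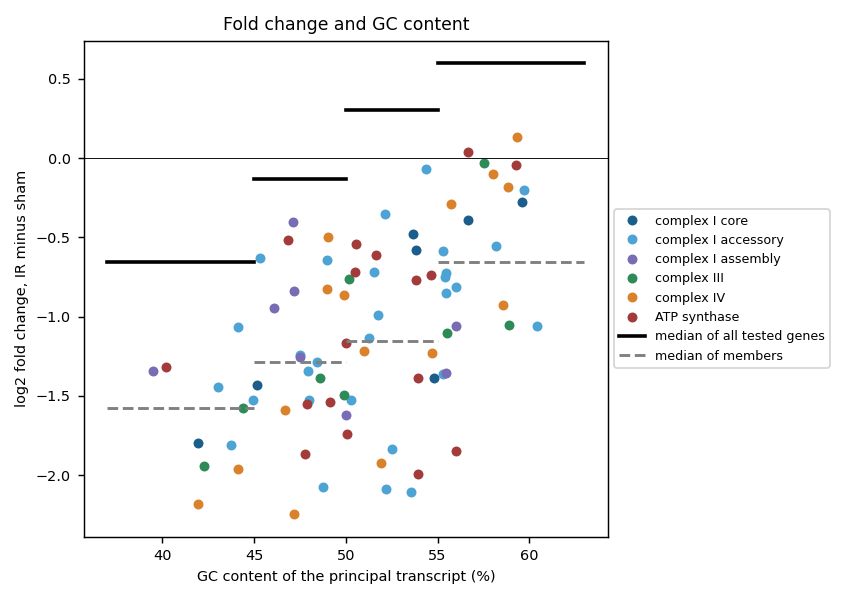
Log2 fold change of IR over sham (vertical) against GC content of the principal transcript in percent (horizontal) for the 84 tested genes, coloured by complex. Solid bars give the median of all tested genes and dashed bars that of the 84 genes in 4 ranges of GC content, and the dashed bar lies below the solid bar in each range.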

How the data were processed

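Liver RNA was isolated with Trizol and made into libraries with an NEBNext kit, per the labels' protocols. Per the submitters' processing notes, tools included Trimmomatic 0.33, STAR 2.5.0a and DESeq2 1.14, with the build GRCm38. For the read counter, annotation, strand setting and any filter, the sources used here give nothing. The deposited values are counts per gene after division by the authors' size factors, recorded here as signal values. In all 18 libraries 100% of the values above 0 came back as whole reads within a tolerance of 0.1, which gave depths of 10176617 to 12558179 reads in the 17 libraries other than W1. The step of W1 was 0.991. A fixed rule refused steps this close to 1 as possible rounding, so W1 was kept out of count tests.

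Genes with a value of at least 10 in at least 3 libraries were tested with limma 3.58.1 (R 4.3.3) on log2(value + 1), with a mean-variance trend and Benjamini-Hochberg adjustment over 13590 genes, and called at an adjusted p below 0.05. A fold change on this scale understates the change of low genes. The members, gene lists and tests were chosen with earlier results of these data known. Positions are 1-based, from GENCODE vM21 on GRCm38. GC content, transcript length and near-identical copies (blastn 2.17.0, at least 95% identity over at least 50 bases) refer to the principal transcript. Genes that overlap a member at its own locus were counted as near-identical sequence too.

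Genes named with values were, per complex, the 3 with the highest sham level per kb, the 2 with the highest and the 2 with the lowest fold change and all tissue isoforms, with further members given for their roles. The individual values of 1 tested gene are not reported here, although it is counted. Alternatives were other pseudocounts, filters and scalings, array weights, protein-coding genes only, a block on the header numbers, each library left out, and count tests on recovered reads of 17 libraries without W1 (edgeR 4.0.16, DESeq2 1.42.0). Adjustment for GC content, for GC content with length, and the principal transcript length were added after seeing the data. The fit was tested on simulated data. Intervals are 95% intervals from limma.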

Additional observations from a re-analysis of the deposited data

Results flagged for a closer look

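In 7 of 100 groups of 9 libraries, 1 library lay far from the others by Dixon's gap ratio, which chance gives in about 1 in 20 groups. Library IR8 was far above the other IR libraries for Ndufa4l2, at 96.0, and for Cox4i2, at 15.6, both of which are hypoxia-linked isoforms of complex IV. Library W8 was far above the other sham libraries for Cox4i1, at 7345, for Atp5g3, at 8506, and for Ndufaf5, at 141.5. Library IR4 was highest for Atp5k, at 1683, and library IR5 for Cox8b, at 2.60.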

How the results depend on the processing

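Of the 84 tested genes, 74 were lower in IR libraries with pseudocounts of 0.5 and 5, without a filter, with TMM or upper-quartile scaling, among protein-coding genes, with array weights, and with edgeR or DESeq2 on 17 libraries. A mean value of at least 50 left 73 (Cox7a1 was no longer tested). Equal column totals left 70, without Atp5g1, Ndufa10, Ndufaf7 and Ndufv1, and moved the median log2 fold change to -0.85. Leaving out single libraries gave 74 to 76 lower genes, 0 higher, medians from -1.16 to -1.05, and 4970 to 5075 lower and 5083 to 5200 higher among all genes. Adjusted for GC content, 80 genes were lower, and Atp5g2 turned to -0.54 (limma adjusted p = 0.0427). With length adjusted too, 72 were lower, the median was -0.65 and Ndufaf7 turned to 0.10 (limma adjusted p = 0.431). The cause of these shifts was not tested. The median sham level per kb was 1134, or 1702 with the longest and 1791 with the principal transcript. Directions of genes that were not called turned in several settings. With equal column totals, log2 fold changes were 0.19 for Atp5d, 0.21 for Uqcrc1, 0.17 for Ndufa8, 0.14 for Cox4i1, 0.037 for Ndufb7 and 0.054 for Cox6a1. With array weights, Uqcrc1 was at 0.012 and Ndufa8 at 0.041. Atp5g2 was at -0.19 with edgeR and -0.18 with DESeq2. Ndufa4l2 was at -0.54 adjusted for GC content and at -0.064 with length too, where Ndufa8 was at 0.056. With single libraries left out, Atp5d ranged from -0.10 to 0.034, Uqcrc1 from -0.065 to 0.039, Atp5g2 from -0.14 to 0.13 and Ndufa4l2 from -0.12 to 0.28. Over 44 named genes and 32 settings, 1359 fold changes kept direction and call, 17 gained and 7 lost the call, and 21 changed direction, of which 2 were called in at least 1 of the settings compared.

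The labels tie the header numbers to no sample. Same-numbered libraries correlated between -0.07 and 0.12 after their group means were removed, 1 of 9 pairs exceeded 0.1, and 0 of 18 libraries correlated best with its own number. With the header number as replicate block, 74 genes were lower, with a median of -1.08, and 5009 genes in all were lower and 5153 higher.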
